A study of Mus musculus with 10 samples.

Results

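Cyclins are the regulatory subunits that switch on cyclin-dependent kinases (CDKs), and the genes described here are those whose products act from S phase entry to mitosis. The 10 genes were chosen by symbol from the 24608 gene symbols of the count table, with no measured value in the rule. They are the kinases Cdk1 and Cdk2, the mitotic cyclins Ccnb1 and Ccnb2, the S phase cyclins Ccna2, Ccne1 and Ccne2, the cyclin F gene Ccnf, and Cks1b and Cks2, which encode small subunits that bind the CDKs. E-type cyclins with CDK2 act at the start of DNA replication, cyclin A2 acts through S phase and G2, and B-type cyclins with CDK1 carry the cell into mitosis. Messenger RNAs of most of these genes are known to be scarce in resting cells and to accumulate as cells cycle. Muscle satellite cells (MuSCs), the stem cells of skeletal muscle, are quiescent in intact muscle and divide after injury.

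RNA was measured in MuSCs of control mice (Trpm7+/+; Pax7CreERT2/+; Rosa26YFP) and Trpm7 cKO mice (Trpm7 flox/flox; Pax7CreERT2/+; Rosa26YFP), with 5 libraries of each genotype. Trpm7 encodes a magnesium-conducting channel, and Cre expressed from Pax7 removes its floxed part only in the Pax7 lineage. All mice were adults, received tamoxifen to switch on Cre and had muscle injured with cardiotoxin (CTX), so both genotypes carried Cre and the YFP reporter. Cells were taken 3 days after CTX, 3000 sorted cells went into each library, and CEL-Seq2 recorded the 3′ end of transcripts with a unique molecular identifier (UMI) per molecule. Controls had no floxed allele. Whether each library came from a separate animal is not stated, and the library names of Trpm7 cKO replicates 4 and 5 share a number of unstated meaning, so that p-values measure the spread between these libraries.

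Control libraries held 914361 to 1097709 counts and Trpm7 cKO libraries 205986 to 581121, with no overlap, so depth and genotype cannot be told apart. Trpm7 itself had 66 to 84 counts in control and 10 to 55 counts in Trpm7 cKO libraries, and its log2 fold change was -0.09 (SE 0.20, edgeR adjusted p = 0.723). Where the floxed part lies relative to the counted 3′ end is not given in the sources used here, so these counts do not check the deletion. The 14 MuSC identity genes summed to 3322 to 3824 CPM (counts scaled to a common library total, by trimmed-mean or TMM factors) in control and 3026 to 5037 CPM in Trpm7 cKO libraries, and none was at 0 in all libraries of a genotype. Within that sum 7 of the 13 tested were higher in Trpm7 cKO, among them Chodl (log2 fold change 3.49) and Pax7 (1.19), and 2 were lower, among them Myod1 (-2.01). Of all genes tested, 24.6% were higher and 24.1% lower. The 20 leukocyte markers summed to 384.5 to 646 CPM in control and 1395 to 6346 CPM in Trpm7 cKO libraries. All 16 that could be tested were higher in Trpm7 cKO, against 24.6% of all genes tested. Some, such as Adgre1 with 4 to 5 counts per control library, had enough counts for testing only through the Trpm7 cKO libraries. That count of 16 is thus partly set by the filter. None of the 20 was at 0 throughout a genotype, and 3 were at 0 in at least 1 control library. The 8 endothelial markers summed to 5.36 to 56.7 CPM in control and 101.2 to 640.1 CPM in Trpm7 cKO libraries. The 8 markers of fibroadipogenic progenitors went from 988 to 2048 CPM in control to 1578 to 3886 CPM in Trpm7 cKO, and the 6 mural cell markers from 604 to 938 CPM to 1195 to 1741 CPM. Of the mural sum, a mean of 232 CPM in control and 402 CPM in Trpm7 cKO came from Notch3, which is also among the 14 MuSC identity genes. The part of these other cells in the results for the cyclins and CDKs was not tested other than with the leukocyte level as a covariate, and in a bulk library fewer cells of a type and less RNA per cell cannot be told apart.

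**Figure D1:**
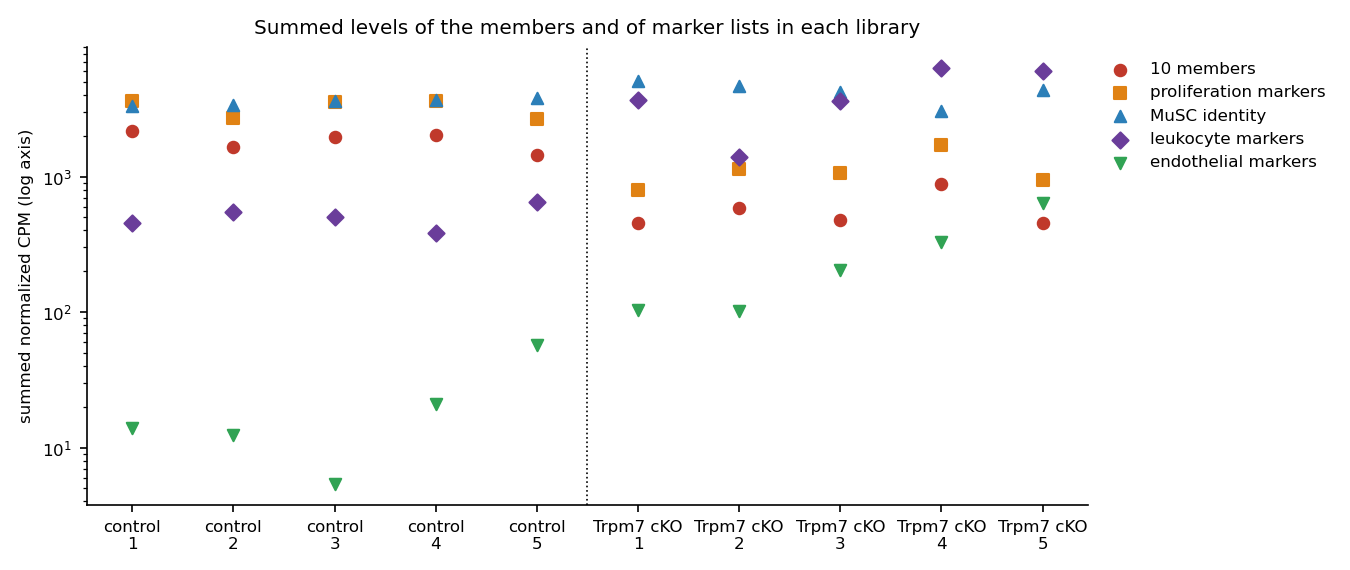
Summed level of the 10 genes and of marker lists in each of the 10 libraries, in normalized CPM on a log axis, controls left of the dotted line and Trpm7 cKO right of it. The 10 genes together sit at 1433 to 2171 CPM in control and 452.5 to 886 CPM in Trpm7 cKO libraries, while the leukocyte markers are higher in every Trpm7 cKO library than in any control library.

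Most of the set was lower in Trpm7 cKO MuSCs. Summed over the 10 genes, control libraries averaged 1849 ± 298 CPM (SD, n = 5) against 572 ± 184 CPM (SD, n = 5) for Trpm7 cKO, a ratio of 3.23. Of the 10 genes, 8 had enough counts to be tested, and all 8 fell at an edgeR adjusted p below 0.05. The same was true of 24.1% of the 7753 genes tested. Ccnf and Ccne1, with 1 to 13 and 1 to 17 counts per Trpm7 cKO library, had enough counts only through the control libraries. Their place among the 8 here and the 6 below is thus partly set by the filter. In edgeR with no filter the same 8 of the 10 were lower, where 2635 of 21914 genes were. With DESeq2, which tested all 10, the same 8 were lower, against 13.8% of the 14306 genes it tested. Past a log2 fold change of -1.5 as well, 6 were lower, namely Ccne1, Cdk1, Cks1b, Ccna2, Ccnb1 and Ccnf, against 3.53% of all genes tested. Over all genes tested, the median was a log2 fold change of -0.01.

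For 6 of the 10 genes, namely Cdk1, Ccnb1, Ccnb2, Ccna2, Ccne1 and Cks1b, the lowest control value exceeded the highest Trpm7 cKO value, and 17.9% of all genes tested had this separation. Trpm7 cKO replicate 4 was the highest Trpm7 cKO library for 7 of the 10 genes, with leukocyte markers at 6346 CPM. Replicate 5, with leukocyte markers at 6010 CPM, had the lowest summed level of the 10 genes, 452.5 CPM on 82 counts. Trpm7 cKO replicate 1 was close to it at 454.6 CPM, with leukocyte markers at 3666 CPM. Control replicate 5 was the lowest control library for 7 of the 10. With the mean leukocyte marker level as a covariate, 3 of the 8 tested genes had an edgeR adjusted p below 0.05. That level did not overlap between genotypes, at 3.55 to 4.12 in control and 5.18 to 7.35 in Trpm7 cKO on the log2 CPM scale, so the covariate and genotype share most of their spread. The log2 fold changes in that edgeR fit were -2.39 for Ccna2 (adjusted p = 0.0933), -1.85 for Ccnb1 (adjusted p = 0.0682), -0.74 for Ccnb2 (adjusted p = 0.393), -3.03 for Ccne1 (adjusted p = 0.0629) and -1.88 for Cdk1 (adjusted p = 0.174). Ccnf (-3.62, adjusted p = 0.0466), Cdk2 (-1.47, adjusted p = 0.0433) and Cks1b (-1.84, adjusted p = 0.0354) passed, each close to the threshold of 0.05. Without the covariate Ccnf was at -1.55 and Cdk2 at -0.67.

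**Figure D2:**
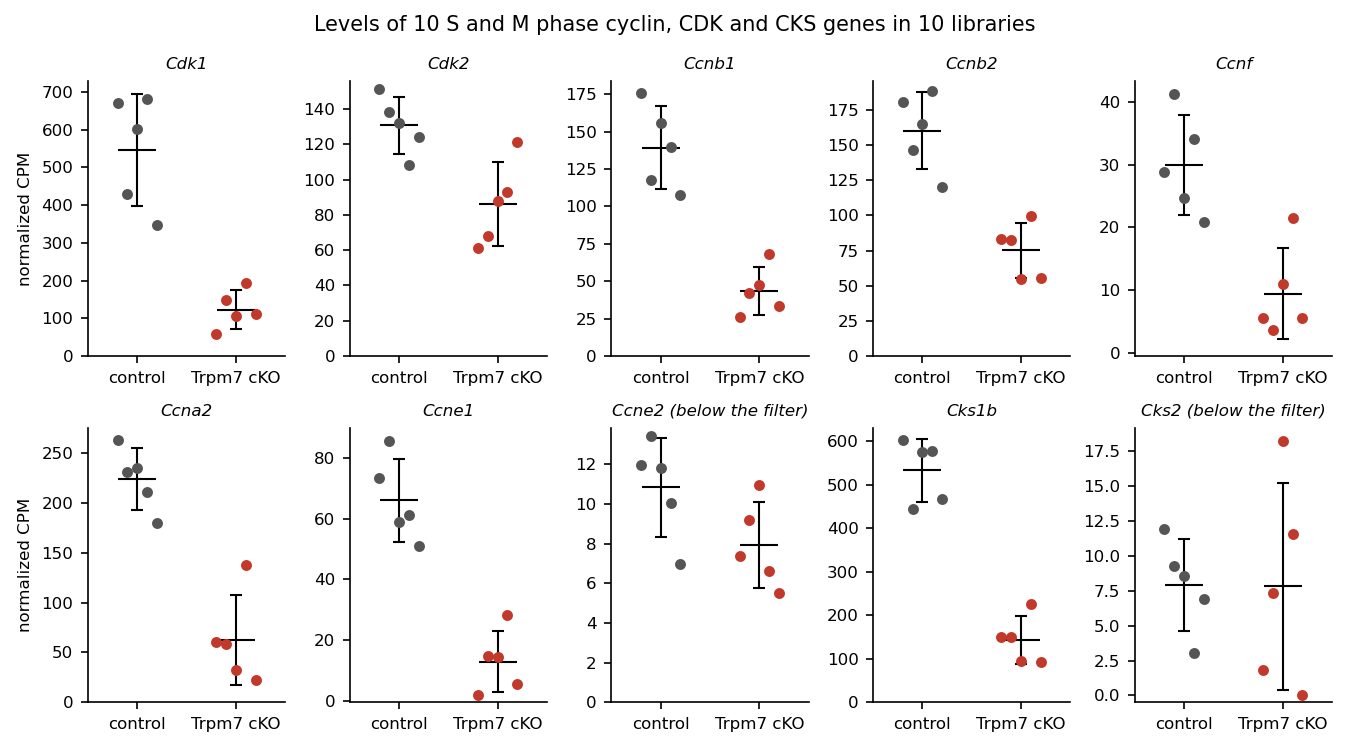
Normalized CPM of each of the 10 genes by library (points), with the mean and SD of 5 control and 5 Trpm7 cKO libraries. Ccne2 and Cks2, marked as below the filter, have few counts, and Ccnf and Cdk2 have libraries of the genotypes at overlapping levels.

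S and M phase genes are known for promoter elements that bind repressor and activator complexes through the cycle. The start sites of the genes described here are shown for that reason. Of the 8 promoters found, 7 belong to genes that fell, and the other to Cks2, which did not pass the filter. Whether these elements have a part in the falls was not tested. RefSeq promoters (250 bases before to 50 bases after the start, GRCm38.p6) were found for 8 of the 10 genes, those other than Ccna2 and Ccne2. In the lines below, from 150 bases before to 20 bases after the start, 5′ to 3′ on the gene's strand, capitals mark TTTGAA, the core of the cell cycle homology region (CHR), and CCAAT, the letters bound by NF-Y, either of them also on the opposite strand as TTCAAA or ATTGG. The first 4 are the promoters that hold TTTGAA. Ccne1, with a log2 fold change of -2.20 beside -2.12 for Cdk1, holds neither and is shown for contrast.
Cdk1, chr10:69352893-69353062, minus strand: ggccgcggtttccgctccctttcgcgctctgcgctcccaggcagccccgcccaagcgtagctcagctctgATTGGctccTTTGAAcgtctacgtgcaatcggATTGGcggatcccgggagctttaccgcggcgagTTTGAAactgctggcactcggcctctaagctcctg
Cks1b, chr3:89418272-89418441, minus strand: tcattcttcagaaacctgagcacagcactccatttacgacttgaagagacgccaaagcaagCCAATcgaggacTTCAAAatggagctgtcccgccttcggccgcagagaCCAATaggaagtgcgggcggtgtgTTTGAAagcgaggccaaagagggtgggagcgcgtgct
Ccnf, chr17:24251390-24251559, minus strand: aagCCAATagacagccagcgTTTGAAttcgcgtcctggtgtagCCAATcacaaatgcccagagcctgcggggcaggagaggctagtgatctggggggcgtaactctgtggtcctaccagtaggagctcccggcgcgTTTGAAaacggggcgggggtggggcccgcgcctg
Ccnb2, chr9:70421535-70421704, minus strand: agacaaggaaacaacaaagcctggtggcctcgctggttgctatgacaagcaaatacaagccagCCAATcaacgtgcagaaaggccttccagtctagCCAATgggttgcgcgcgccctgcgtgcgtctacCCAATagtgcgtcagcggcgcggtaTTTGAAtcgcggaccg
Ccne1, chr7:38107471-38107640, minus strand: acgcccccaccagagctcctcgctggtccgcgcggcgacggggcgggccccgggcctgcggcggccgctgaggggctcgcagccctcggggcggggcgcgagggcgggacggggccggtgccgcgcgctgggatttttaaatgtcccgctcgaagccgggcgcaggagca

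Cdk1, Cks1b and Ccnf each had a TTTGAA just before the start, at -15, -17 and -14, and Ccnb2 had one just after it at 5. A further match lay at -71 in Cdk1, at -77 in Cks1b on the opposite strand, at -130 in Ccnf and at -167 in Ccnb2. TTTGAA was in 4 of the 8 promoters and in 17.9% of the 32851 promoters of the same length. CCAAT was in 7 of the 8, Ccne1 being without it, against 37.4% of all promoters, and 6 of the 8 held at least 2 against 11.7%. Both motifs together were in 4 of 8 and in 6.95% of all. An E2F octamer (TTTCCCGC, TTTCGCGC, TTTGCCGC or TTTGGCGC on either strand) was in Cdk1 at -131 and Cdk2 at -140, and in 2.26% of all promoters. These are matches of letters in a fixed window, not binding sites, and no count of the RNA was used to find them.

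**Figure D3:**
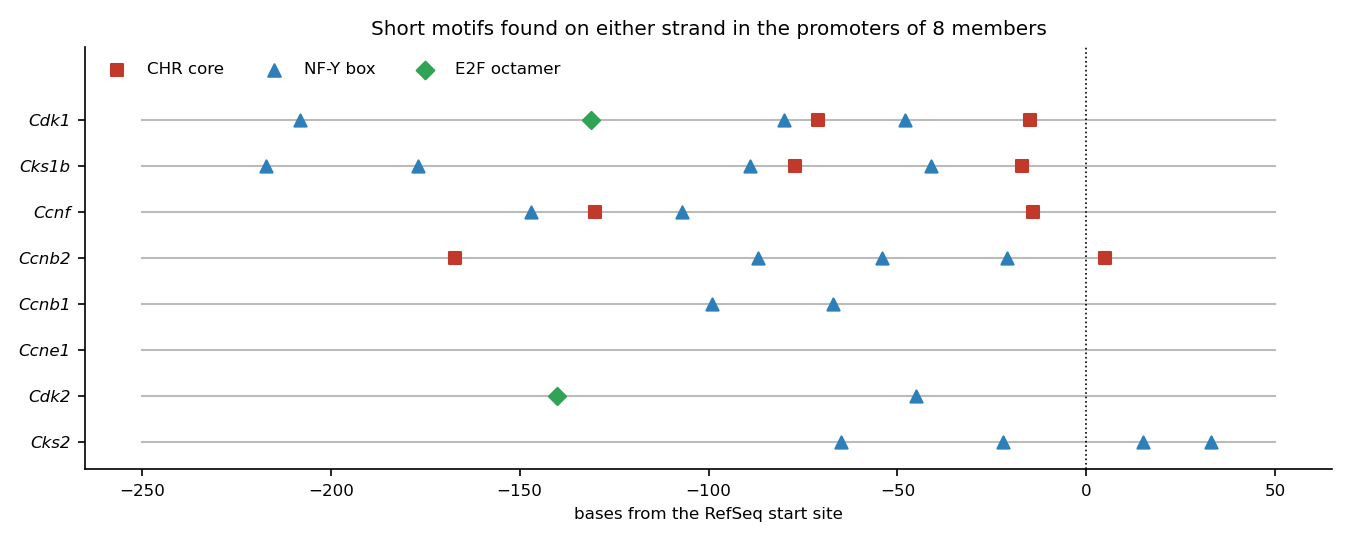
Motif matches in the 8 promoters, from 250 bases before to 50 bases after the RefSeq start site (dotted line), with squares for the CHR core, triangles for the NF-Y box and diamonds for the E2F octamer. Matches to the letters of the CHR core lie close to the start in Cdk1, Cks1b, Ccnf and Ccnb2, and Ccne1 has no mark.

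Cdk1 (ENSMUSG00000019942, chr10:69335146-69352938, minus strand, 8 exons in Cdk1-201), the kinase that drives entry into mitosis, had 671, 431, 602, 681 and 348.5 CPM in control replicates 1 to 5. In Trpm7 cKO replicates 1 to 5 it had 57.3, 147, 106, 194 and 110.4 CPM. The lowest control library, replicate 5, was above the highest Trpm7 cKO library, replicate 4. The fall was 4.44-fold in the means, with a log2 fold change of -2.12 (SE 0.27, edgeR adjusted p = 1.42e-05), and 63 of 7753 genes tested had a lower one. Cdk2 (ENSMUSG00000025358, chr10:128697939-128705031, minus strand), the partner of cyclins E and A, moved less. Its control libraries had 151, 138, 132, 108 and 124 CPM. Its Trpm7 cKO libraries had 61.0, 68.1, 87.7, 92.8 and 121 CPM. Trpm7 cKO replicate 5 reached into the control range, where replicate 4 was the lowest at 108 CPM. The log2 fold change was -0.67 (SE 0.18, edgeR adjusted p = 0.00396). With counts thinned to the smallest library it was -0.50 (adjusted p = 0.0639).

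The mitotic cyclin genes Ccnb1 and Ccnb2, whose products bind CDK1, were both lower. Ccnb1 (ENSMUSG00000041431, chr13:100778650-100786570, minus strand) had 176, 118, 155.5, 139.5 and 108 CPM in control libraries and 25.9, 42.3, 47.5, 67.9 and 33.1 CPM in Trpm7 cKO libraries. No library overlapped, and Trpm7 cKO replicate 1 was the lowest. The log2 fold change was -1.64 (SE 0.22, edgeR adjusted p = 5.7e-06). Ccnb2 (ENSMUSG00000032218, chr9:70407692-70421547, minus strand) had 181, 147, 165, 189 and 120.4 CPM in control libraries and 83.2, 82.8, 54.8, 99.4 and 55.2 CPM in Trpm7 cKO libraries. Libraries did not overlap here either, and the gap between control replicate 5 and Trpm7 cKO replicate 4 was narrow. Its log2 fold change was -1.02 (SE 0.18, edgeR adjusted p = 9.86e-05), short of the threshold of 1.5. Ccnf (ENSMUSG00000072082, chr17:24222198-24251484, minus strand), whose product is an F-box protein that targets proteins for destruction and does not bind a CDK, had 28.8, 41.3, 24.7, 34.1 and 20.8 CPM in control and 5.54, 3.68, 10.96, 21.5 and 5.52 CPM in Trpm7 cKO libraries. These rest on 18 to 40 counts per control library and 1 to 13 per Trpm7 cKO library. Trpm7 cKO replicate 4 was above control replicate 5, and the other 4 Trpm7 cKO libraries lay below all controls. The log2 fold change was -1.55 (SE 0.38, edgeR adjusted p = 0.00196), and -2.33 without Trpm7 cKO replicate 4. It was short of the threshold of 1.5 without Trpm7 cKO replicate 2 (-1.28) and with total counts in place of TMM scaling (-1.44).

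Of the S phase cyclin genes, Ccna2 and Ccne1 fell. Ccna2 (ENSMUSG00000027715, chr3:36564865-36572150, minus strand), which encodes the partner of CDK2 in S phase and of CDK1 in G2, had 262.5, 230.3, 235, 211 and 179 CPM in control libraries. Trpm7 cKO libraries had 61.0, 58.9, 32.9, 137.5 and 22.1 CPM. Trpm7 cKO replicate 4 stood above the others, still below the lowest control. The log2 fold change was -1.68 (SE 0.29, edgeR adjusted p = 0.000222). The 3′ end of Ccna2 overlaps Exosc9 on the opposite strand, and the strand setting of the counting is not given in the sources used here, so reads of the pair may not be told apart. Ccne1 (ENSMUSG00000002068, chr7:38097984-38107534, minus strand), a cyclin of the G1 to S transition, had 73.6, 85.7, 59.0, 61.2 and 50.9 CPM in control libraries and 1.85, 14.7, 14.6, 28.2 and 5.52 CPM in Trpm7 cKO libraries. The Trpm7 cKO values rest on 1 to 17 counts per library, and all lay below the lowest control. The log2 fold change was -2.20 (SE 0.34, edgeR adjusted p = 3.14e-05), with 55 genes tested below it. It was -2.85 without Trpm7 cKO replicate 4 and -1.86 without Trpm7 cKO replicate 1.

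Ccne2 (ENSMUSG00000028212, chr4:11191351-11204779, plus strand), the paralog of Ccne1, did not pass the filter. It had 12, 13, 11, 10 and 6 counts in control libraries and 4, 5, 3, 4 and 1 counts in Trpm7 cKO libraries, or 10.8 ± 2.48 CPM (SD, n = 5) and 7.94 ± 2.16 CPM (SD, n = 5). The levels overlapped, and DESeq2, which tested it, gave a log2 fold change of -0.52 with an adjusted p of 0.471. No call was made in either direction. Its 3′ end overlaps Ints8 on the opposite strand.

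The CKS genes, encoding adaptors of the CDKs (Cks1b also binds the ubiquitin ligase subunit SKP2), differed in how well they were measured. Cks1b (ENSMUSG00000028044, chr3:89415472-89418383, minus strand) had 603, 445, 575, 577 and 468 CPM in control libraries. Trpm7 cKO libraries had 149.7, 151, 95, 227 and 93.8 CPM. Controls were all above every Trpm7 cKO library, and the coefficient of variation was 13.4% in control and 38.1% in Trpm7 cKO. The log2 fold change was -1.83 (SE 0.19, edgeR adjusted p = 4.02e-07). Of the last 500 bases of its transcript, 67.2% lay in matches of 31 bases shared with the retrogene Cks1brt, which had no row in the count table, so the split of reads is uncertain. Cks2 (ENSMUSG00000062248, chr13:51645232-51650660, plus strand) did not pass the filter, with 12, 9, 8, 3 and 6 counts in control and 1, 4, 5, 7 and 0 counts in Trpm7 cKO libraries. Its levels were 7.95 ± 3.30 CPM (SD, n = 5) and 7.82 ± 7.42 CPM (SD, n = 5), overlapping throughout, and 45.8% of its last 500 bases are shared with Gm15452, Gm19945, Gm12891 and Gm19790. DESeq2 gave a log2 fold change of -0.07 with an adjusted p of 0.951.

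Whether paralogs and partners moved to different extents was compared within each library, where the scaling factor cancels. The added constant weighs more where counts are few, so depth can still enter: with 0.1 or 1 added in place of 0.5, the difference in Ccne1 over Cdk2 given next was -2.14 or -1.75. The log2 ratio of the counts of 2 genes (with 0.5 added) was compared between genotypes by an exact permutation test over the 252 assignments, two-sided, with Benjamini-Hochberg adjustment over 7 pairs, and the smallest p this allows is 0.00794. Cdk1 over Cdk2 was 2.02 ± 0.47 (SD, n = 5) in control, at 2.15, 1.63, 2.18, 2.64 and 1.49. In Trpm7 cKO libraries it was 0.44 ± 0.60 (SD, n = 5), at -0.09, 1.1, 0.27, 1.06 and -0.13. The difference was -1.58 (SE 0.34, exact permutation adjusted p = 0.0185), without overlap, so that Cdk1 lost more than Cdk2. Ccne1 over Ccne2 went from 2.56 ± 0.18 (SD, n = 5) to 0.27 ± 1.28 (SD, n = 5), a difference of -2.29 (SE 0.58, exact permutation adjusted p = 0.0185), again without overlap. The Trpm7 cKO values rest on at most 5 counts of Ccne2. Ccne1 over Cdk2, a cyclin set against its kinase, went from -0.99 ± 0.24 (SD, n = 5) to -2.93 ± 1.20 (SD, n = 5), a difference of -1.94 (SE 0.55, exact permutation adjusted p = 0.0185).

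The other 4 ratios also passed the adjusted threshold and each lost its call with at least 1 library left out, when fewer assignments remain for the test. Ccna2 over Cdk2 went from 0.77 ± 0.16 (SD, n = 5) to -0.67 ± 1.16 (SD, n = 5), a difference of -1.44 (SE 0.52, exact permutation adjusted p = 0.0222), and Trpm7 cKO replicate 4 at 0.56 lay within the control range of 0.53 to 0.96. Ccnb1 over Cdk1 rose from -1.94 ± 0.22 (SD, n = 5) to -1.44 ± 0.30 (SD, n = 5), a difference of 0.51 (SE 0.17, exact permutation adjusted p = 0.0222), so that cyclin B1 lost less than its kinase. In Trpm7 cKO the values were -1.12, -1.78, -1.13, -1.5 and -1.66, and 4 of the 5 lay above the highest control at -1.69, replicate 5 only just. Without control replicate 3 the differences were 0.51 for this ratio and -1.42 for Ccna2 over Cdk2, each with an exact permutation adjusted p of 0.0556. Ccnb1 over Ccnb2 went from -0.21 ± 0.16 (SD, n = 5) to -0.81 ± 0.54 (SD, n = 5), a difference of -0.60 (SE 0.25, exact permutation adjusted p = 0.0317). Without Trpm7 cKO replicate 1 it was -0.39 (exact permutation adjusted p = 0.0556), and without control replicate 1, 3 or 5 it was -0.56, -0.57 or -0.59, with an adjusted p of 0.0714 each. Cks1b over Cks2 went from 6.08 ± 0.75 (SD, n = 5) to 4.31 ± 1.32 (SD, n = 5), a difference of -1.77 (SE 0.68, exact permutation adjusted p = 0.0278). With 0.1 added in place of 0.5 it was -1.25 (adjusted p = 0.278 by the exact permutation test), and without control replicate 4, where Cks2 had 3 counts, it was -1.45 (adjusted p = 0.0556). Without control replicate 3 or 5 the difference was -1.80, with an adjusted p of 0.0648 by the same exact permutation test.

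**Figure D4:**
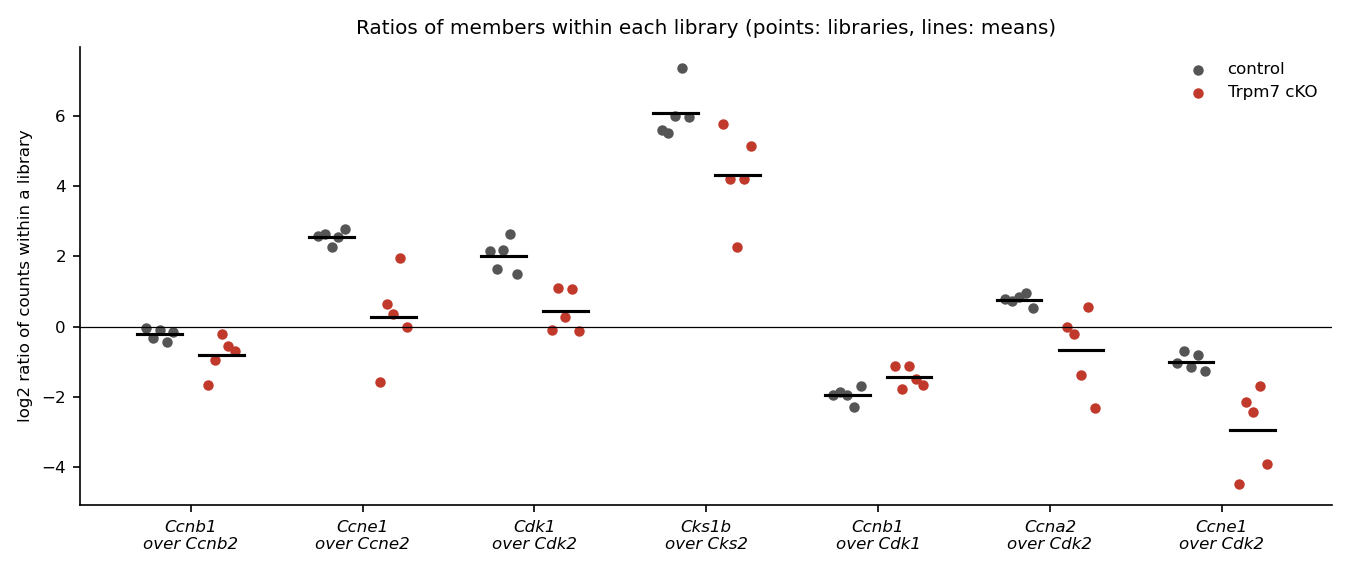
Log2 ratios of the counts of 7 pairs of genes within each library (points, control grey and Trpm7 cKO red) with the mean of each genotype (lines). Cdk1 over Cdk2, Ccne1 over Ccne2 and Ccne1 over Cdk2 separate the genotypes fully, and Ccnb1 over Cdk1 is the ratio that is higher in Trpm7 cKO.

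The activity of these complexes is set by other proteins, and 48 of their genes were described by role. Of the 40 that could be tested, 17 fell, 6 rose and 17 did not pass the test, with a median log2 fold change of -0.43. Among all genes tested 24.1% fell and 24.6% rose. Some of the falls had enough counts for testing only through the control libraries. Examples were Aurkb, Bora, Fbxo5 and Wee1, with at most 7, 15, 17 and 25 counts per Trpm7 cKO library. Among the rises, Fbxw7 and Nfya had enough only through the Trpm7 cKO libraries, with 11 to 14 and 6 to 18 counts per control library. The counts of 17 falls and 6 rises are thus partly set by the filter. Mitotic kinases and their phosphatase control gave 4 falls of 7 tested. These were Aurka (-1.56), Plk1 (-1.51), Aurkb (-1.34) and Bora (-1.18), kinases of spindle and chromosome behaviour and, in Bora, an activator of Aurora A, while Ensa, an inhibitor of a mitotic phosphatase, rose (0.54). Wee1, the kinase that puts an inhibitory phosphate on CDK1, fell from 58.3 ± 12.7 CPM to 18.6 ± 13.8 CPM (SD, n = 5 each), a log2 fold change of -1.59 (SE 0.33, edgeR adjusted p = 0.000564). Cdc25b, a phosphatase that removes such a phosphate, fell (-0.75, SE 0.24, adjusted p = 0.0122 in edgeR). Of the CDK-activating kinase, Cdk7 fell (-0.70), Mnat1 rose (0.74) and Ccnh had a value of 0.37 that did not pass the test.

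Genes of the ubiquitin system that destroys cyclins and CDK inhibitors had 9 falls and 3 rises among 20 tested. Ube2c, which hands ubiquitin to the anaphase-promoting complex (APC/C), fell from 347 ± 39.0 CPM to 106 ± 37.1 CPM (SD, n = 5 each), a log2 fold change of -1.70 (SE 0.20, edgeR adjusted p = 1.04e-06). Fbxo5, the APC/C inhibitor also called EMI1, fell by 1.59 on the log2 scale (SE 0.37, edgeR adjusted p = 0.00157), on 0 to 17 counts in Trpm7 cKO libraries. Fbxw7, which targets cyclin E, rose from 13.4 ± 1.099 CPM to 38.05 ± 10.4 CPM (SD, n = 5 each), a log2 fold change of 1.40 (SE 0.26, edgeR adjusted p = 0.000131), on 9 to 23 counts per Trpm7 cKO library. Skp2 (-1.41) and the APC/C activators Fzr1 (-1.22) and Cdc20 (-0.80) fell as well. Of genes for proteins that act in the transcription of mitotic genes, 1 of 7 tested fell (Rbbp4, -0.35), and 1 rose. The latter was Nfya, a subunit of the factor that binds CCAAT, from 11.8 ± 5.47 CPM to 34.6 ± 6.77 CPM (SD, n = 5 each), a log2 fold change of 1.53 (SE 0.30, edgeR adjusted p = 0.000302). These levels rest on few counts, 6 to 18 per control library and 7 to 23 per Trpm7 cKO library. Foxm1, a driver of mitotic transcription, had a value of -0.31 (SE 0.31, edgeR adjusted p = 0.418). With the leukocyte covariate 2 of the 40 regulators fell, and Ube2c still passed. The log2 fold changes in that edgeR fit were farther from 0 for Wee1 (-2.93, adjusted p = 0.0666), Fbxo5 (-1.98, adjusted p = 0.289) and Fbxw7 (1.81, adjusted p = 0.068), and nearer to 0 for Nfya (0.78, adjusted p = 0.588).

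Other cyclins and CDKs, grouped apart from those of the G1, S and M phases, had about as many rises as falls. That grouping does not exclude a part for some of them in the cell cycle. Of the 30 genes so grouped, 29 were in the table and 22 could be tested. The 22 gave 3 falls, 4 rises and 15 that did not pass the test, with a median log2 fold change of -0.07. Over all genes tested 24.1% fell and 24.6% rose. Among the rises, Cdk10, with 3 to 8 counts per control library, had enough counts only through the Trpm7 cKO libraries. The falls were Ccng2 (78.0 ± 8.28 CPM to 40.7 ± 17.2 CPM, -0.81, SE 0.21, edgeR adjusted p = 0.00343), Ccng1 (-0.72, SE 0.21, adjusted p = 0.00746) and Ccnt2, a subunit of a transcription elongation kinase (-0.54, SE 0.19, adjusted p = 0.0199). The call for Ccnt2 ended without Trpm7 cKO replicate 2 (-0.45, edgeR adjusted p = 0.0736) and with total counts in place of TMM scaling (-0.44, adjusted p = 0.0764). The highest were Ccnl1, a cyclin of the splicing machinery, from 151 ± 27.9 CPM to 591 ± 177 CPM (SD, n = 5 each; log2 fold change 1.95, SE 0.20, edgeR adjusted p = 3.26e-07) and Cdk14, from 39.1 ± 5.42 CPM to 103 ± 17.6 CPM (1.37, SE 0.18, adjusted p = 2.82e-06). With counts thinned to the smallest library Ccng2 was at -0.37 (edgeR adjusted p = 0.355) and Ccnt2 at -0.63 (adjusted p = 0.0728). With the leukocyte covariate Ccng2 was at -0.06 (edgeR adjusted p = 0.967), Ccng1 at 0.36 (adjusted p = 0.714), Cdk14 at 0.89 (adjusted p = 0.226) and Ccnt2, farther from 0, at -1.24 (adjusted p = 0.132), and Ccnl1 still passed. Without Trpm7 cKO replicate 1, 5 of the list fell in place of 3.

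**Figure D5:**
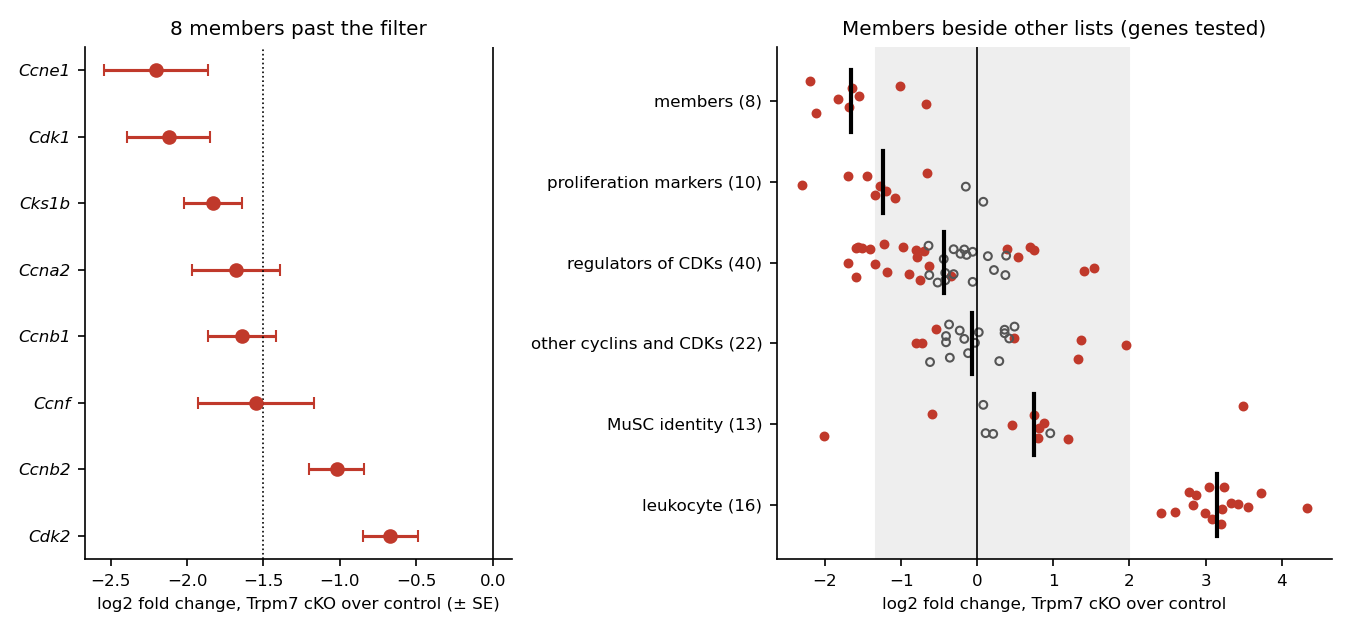
Left, log2 fold change with its SE for the 8 tested genes, with the study's threshold of -1.5 dotted. Right, log2 fold changes of the same genes and of 5 lists, with filled points for an edgeR adjusted p below 0.05, a line at each median and grey for the range from the 5th to the 95th percentile of all genes tested (-1.33 to 2.00). The regulators spread around a median of -0.43 and the other cyclins and CDKs around -0.07.

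General proliferation markers were mostly lower too. Of 10 such genes, 8 fell and 0 rose in edgeR, against 24.1% and 24.6% of all genes tested. Their sum went from 3232 ± 489 CPM to 1124 ± 348 CPM (SD, n = 5 each). Pcna (0.08) and Nusap1 (-0.15) did not pass the test. Ube2c, among the falls, is also among the regulators above. Tyms, with 4 to 14 counts per Trpm7 cKO library, had enough counts only through the control libraries. The genes most like Cdk1, by the root mean square difference of centred log2 CPM over 10 libraries, were Ppif (0.230), Hmgb3 (0.262), Apex2 (0.310), Ncapd2 (0.327) and Shmt2 (0.334), against a median of 1.22 over 7752 genes. Ncapd2 encodes a condensin subunit, Hmgb3 a chromatin protein and Shmt2 a mitochondrial enzyme of serine metabolism. Of the set, Ccnb1 was the nearest to Cdk1 at 0.351, rank 12, followed by Cks1b at 0.452, rank 44, Ccne1 at 0.456, rank 46, and Ccna2 at 0.609, rank 230. Cdk2 was the farthest of the tested members at 0.917, rank 1382. Since these 10 libraries hold 2 genotypes, the genotype difference enters the measure.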

How the data were processed

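MuSC RNA was sequenced as CEL-Seq2 libraries. According to the methods and processing notes, the authors extracted UMIs with UMI-tools 1.1.4, trimmed with Trim Galore 0.6.10, aligned to GRCm38 with HISAT2 2.2.1, assigned reads with featureCounts 2.0.6 and removed UMI duplicates. The deposited values are raw counts of molecules per gene, and the annotation release and strand setting are not given in the sources used here. Of 24620 entries, 12 repeated a symbol, and the entry with the larger total was kept. Genotype came from the sample labels.

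The test was that of edgeR 4.0.16 (R 4.3.3; filterByExpr with minimum count 10 and minimum total 15, TMM factors, robust quasi-likelihood F test, Benjamini-Hochberg adjustment over 7753 genes, genotype as the only term). DESeq2 1.42.0 and limma 3.58.1 were alternatives. Ratios used exact permutation tests. Totals of 205986 to 1097709 counts set the precision, and SDs also hold counting error. The code was tested on simulated counts. The genes, lists and tests were chosen with earlier results of these data known. All 10 genes were named, and from each other list the 3 lowest and 2 highest log2 fold changes below the adjusted threshold, with the 5 genes nearest Cdk1. Further regulators (such as Plk1, Skp2 and Foxm1), Cdk10, Tyms, Pcna, Nusap1 and the 3 MuSC identity genes were named after their values were seen. No 2 libraries of a genotype agreed within counting noise (chi-square per degree of freedom at least 1.47), so none was treated as a duplicate deposit. This does not show that they came from separate animals. Positions and exons came from GENCODE M21, promoters from RefSeq.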

Additional observations from a re-analysis of the deposited data

Results flagged for a closer look

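Among 68 groups of 5 libraries examined for a single value far from the rest, 1 stood out. The log2 ratio of Cks1b over Cks2 was 7.36 in control replicate 4, while the other 4 control libraries lay between 5.51 and 5.98. Its gap to the nearest library was 0.744 of the whole range, against a critical value of 0.71. Cks2 had 3 counts in that library, and chance alone flags about 5% of such groups.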

How the results depend on the processing

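The directions of the 8 tested genes held under every alternative run. Of them, 8 stayed lower at the adjusted threshold with RLE factors, total counts, MuSC identity scaling, DESeq2, limma-voom, both other filters, Trpm7 cKO replicates 4 and 5 summed, and each library left out in turn, and 4 to 6 were lower past both thresholds with a library left out. With counts thinned to the smallest library 6 could be tested, Ccne1 and Ccnf not among them, and 5 were lower. With the leukocyte covariate 3 were lower and 2 past both thresholds, in a fit that called 166 genes lower and 444 higher in all. The regulators gave 8 falls after thinning, 2 with the covariate and 15 to 19 with a library left out, against 17. The other cyclins and CDKs gave 6 falls with MuSC identity scaling, 7 without a filter, 1 after thinning, 1 with the covariate and 2 to 5 with a library left out, against 3. Ccng1 turned to 0.36 with the covariate. Under MuSC identity scaling the median over all genes was -0.23 and falls made up 63.4% of calls, against 49.4%. Total counts gave 0.10 and 41%. The cause of these changes was not tested, beyond the fewer counts left by thinning.

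With a library left out, the ratios ranged from -0.75 to -0.39 for Ccnb1 over Ccnb2, -2.13 to -1.26 for Cks1b over Cks2, 0.42 to 0.59 for Ccnb1 over Cdk1 and -1.74 to -1.02 for Ccna2 over Cdk2, and each lost its call at least once. Cks1b over Cks2 was -1.25 with a pseudocount of 0.1. The remaining 3 ratios kept their calls.

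With the replicate number as a block, 8 of the genes were lower, 6 past both thresholds, with 16 regulators and 3 other cyclins and CDKs, and no call of a named gene that was refitted changed. The numbers do not pair the libraries, since 1 of 5 same-numbered pairs had a correlation of deviations over 0.1 (-0.12 to 0.18) and 1 of 5 controls correlated best with its own number.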
